A study of Mus musculus with 6 samples.

Results

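The guanylate-binding proteins (Gbp) were measured in the RNA-Seq data of mouse Naive, Th17 and Th1 cells. The family was taken as the 8 genes *Gbp2*, *Gbp3*, *Gbp4*, *Gbp5*, *Gbp6*, *Gbp7*, *Gbp8* and *Gbp9*, found by their symbols. All 8 were present among the 24223 genes of the count tables, and all 8 passed the filter on low counts that left 13607 genes for testing. Guanylate-binding proteins are large GTPases that are induced by interferons. Interferon gamma (IFN-γ), the cytokine that defines Th1 cells, binds the IFNGR1 and IFNGR2 receptor chains, which signal through the kinases JAK1 and JAK2. The transcription factor IRF1 is among the factors that then act on interferon-stimulated genes. The proteins assemble on pathogen vacuoles and on bacterial surfaces, promote lysis of these targets and feed into inflammasome activation, and most of this is known from macrophages rather than from T cells.

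The study isolated Naive CD4+ T cells from the pooled lymph nodes and spleens of C57BL/6 mice aged 1 to 2 months with a magnetic isolation kit. Th1 and Th17 cells were made from them in vitro by activation through CD3 and CD28. Th1 cultures received anti-IL-4, IL-12 and IL-2, and Th17 cultures received anti-IL-4, anti-IFN-γ, TGF-β, IL-6, IL-1β and IL-23, and both were harvested on day 5. Naive cells were not activated, so that activation and polarization cannot be told apart in a comparison with Naive, and the antibody against IFN-γ was present in Th17 cultures only. The cultures were not sorted for cytokine-producing cells. Each cell type had 2 libraries, which the study describes as independent biological replicates.

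Total counts per library ranged from 17742158 to 69080017, and replicate 1 was between 3.38 and 3.77 times as deep as replicate 2. The members had between 397 and 156651 counts in a library. Levels are given as CPM, counts per 1000000 of the library total as scaled by edgeR's TMM method, and 3 counts correspond to between 0.0440 and 0.190 CPM. Differences are log2 fold changes from edgeR's quasi-likelihood F-test over all 6 libraries, with a standard error (SE). A gene counted as called when its p-value, adjusted by Benjamini-Hochberg over all tested genes, was under 0.01 and its log2 fold change was above 1 or below -1. The smallest p of an exact two-sided permutation test on 2 against 2 values is 0.333, so that single genes rest on the model across all genes. The cell type labels were checked against markers of each lineage. Summed Th1 markers (*Tbx21*, *Ifng*, *Cxcr3*, *Il12rb2*) reached 763 and 775 CPM in Th1 and at most 93.8 CPM in the other libraries. The Th17 cytokine gene *Il17a* had 526 and 691 CPM in Th17 and at most 0.541 CPM elsewhere, and *Il23r* had 33.1 and 30.4 CPM in Th17 and at most 2.01 CPM elsewhere. The naive T cell marker *Lef1* did not separate the groups, with 287 and 475 CPM in Naive, 261 and 240 CPM in Th17 and 292 and 567 CPM in Th1, and *Ccr7* lay between 296 and 523 CPM in the 6 libraries. Transcripts of other cell types were also present. Summed markers of B cells were at most 15.8 CPM and those of CD8 T cells at most 11.3 CPM in every library, and those of NK cells lay between 21.6 and 60.2 CPM. Summed erythroid markers, led by *Car1*, had 473 and 86.4 CPM in Naive and at most 1.33 CPM elsewhere, with the 4 haemoglobin genes of the list at 0 in every library. Summed mast cell and basophil markers had 176 and 479 CPM in Th17 and between 18.4 and 72.8 CPM elsewhere. A list of 7 neutrophil genes summed to 2875 and 2773 CPM in Th17, between 189 and 310 CPM in Naive and at most 39.3 CPM in Th1. *S100a8* and *S100a9* led this sum in Th17. In Naive it was led by *Mpo*, with 251 and 159 CPM, and *Elane*, with 57.3 and 29.6 CPM. *S100a8*, *S100a9*, *Ngp*, *Ltf* and *Camp* were called higher in Th17 than in Naive. *Mpo* was called lower in Th17, with 68.1 and 58.7 CPM, and *Elane* was not called.

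The family lies in 2 clusters in the mouse genome (GRCm38, the assembly also called mm10, with GENCODE vM21 positions). *Gbp5*, *Gbp7*, *Gbp3* and *Gbp2* lie on the plus strand of chromosome 3 within 142493978 to 142638008, together with *Gbp2b*, which was not in the member list. *Gbp8*, *Gbp9*, *Gbp4* and *Gbp6* lie on the minus strand of chromosome 5 within 105014150 to 105346472, together with *Gbp10* and *Gbp11*. The promoter table of RefSeq (GRCm38.p6) held start-site windows for 4 of the 8 members, *Gbp2*, *Gbp3*, *Gbp5* and *Gbp7*. The other members are *Gbp4*, *Gbp6*, *Gbp8* and *Gbp9*. The 250 bases before the RefSeq start site are shown for these 4 members, because interferon signalling is known to act on the promoters of this family. *Gbp2b* is shown beside them because it was the lowest Gbp gene of the same cluster. Capitals mark matches to an interferon-stimulated response element (ISRE)-type motif, GAAANNGAAA, or to a gamma-activated site (GAS), TTCNNNGAA, on either strand. ISRE-type motifs are bound by IRF1 and other interferon regulatory factors, and GAS motifs are known from genes that respond to IFN-γ.
Gbp2 (chr3:142620413-142620662, plus strand): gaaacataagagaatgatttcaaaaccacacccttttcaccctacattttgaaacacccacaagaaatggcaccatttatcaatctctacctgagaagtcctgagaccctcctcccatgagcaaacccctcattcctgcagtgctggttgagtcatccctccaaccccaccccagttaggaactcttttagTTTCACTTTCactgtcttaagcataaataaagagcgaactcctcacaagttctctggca
Gbp3 (chr3:142559794-142560043, plus strand): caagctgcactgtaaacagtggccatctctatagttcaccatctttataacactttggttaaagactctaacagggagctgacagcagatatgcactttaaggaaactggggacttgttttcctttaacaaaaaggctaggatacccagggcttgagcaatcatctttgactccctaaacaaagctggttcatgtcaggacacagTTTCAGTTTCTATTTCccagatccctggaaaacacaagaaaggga
Gbp5 (chr3:142496684-142496933, plus strand): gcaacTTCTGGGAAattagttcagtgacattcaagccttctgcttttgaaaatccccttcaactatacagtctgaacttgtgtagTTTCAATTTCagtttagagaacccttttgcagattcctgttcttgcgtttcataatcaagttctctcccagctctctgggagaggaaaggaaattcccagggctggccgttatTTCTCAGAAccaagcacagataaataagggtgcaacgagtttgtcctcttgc
Gbp7 (chr3:142530086-142530335, plus strand): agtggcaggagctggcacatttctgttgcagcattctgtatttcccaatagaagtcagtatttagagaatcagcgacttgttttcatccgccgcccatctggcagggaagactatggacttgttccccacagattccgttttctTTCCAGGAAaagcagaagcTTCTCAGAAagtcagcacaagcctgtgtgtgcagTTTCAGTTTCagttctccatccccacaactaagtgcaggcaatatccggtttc
Gbp2b (chr3:142594597-142594846, plus strand): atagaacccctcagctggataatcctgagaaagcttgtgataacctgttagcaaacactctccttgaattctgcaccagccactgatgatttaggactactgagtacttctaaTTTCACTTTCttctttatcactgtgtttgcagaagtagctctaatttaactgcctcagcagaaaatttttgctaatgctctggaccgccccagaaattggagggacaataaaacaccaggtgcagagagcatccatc

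An ISRE-type match was found in a window of each of the 4 members and of *Gbp2b*, always as TTTC before and after a pair of bases, which is the motif read on the minus strand. In *Gbp2* it spanned positions -59 to -50 from the start site and in *Gbp7* positions -53 to -44. *Gbp3* had 2 matches that overlap each other, from -45 to -36 and from -39 to -30, and its second start-site window, not printed, had none. In *Gbp5* the match was farther away, from -165 to -156. GAS matches were present in *Gbp5*, from -245 to -237 and from -52 to -44, and in *Gbp7*, from -106 to -98 and from -87 to -79. No GAS match was found in the windows of *Gbp2*, *Gbp3* and *Gbp2b*, and no ISRE-type match shared bases with a GAS match. Of 32851 RefSeq windows of 300 bases, 3.44% held the ISRE-type letters, 8.30% the GAS letters and 0.454% both. These matches describe letters and were not tested for binding.

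**Figure D1:**
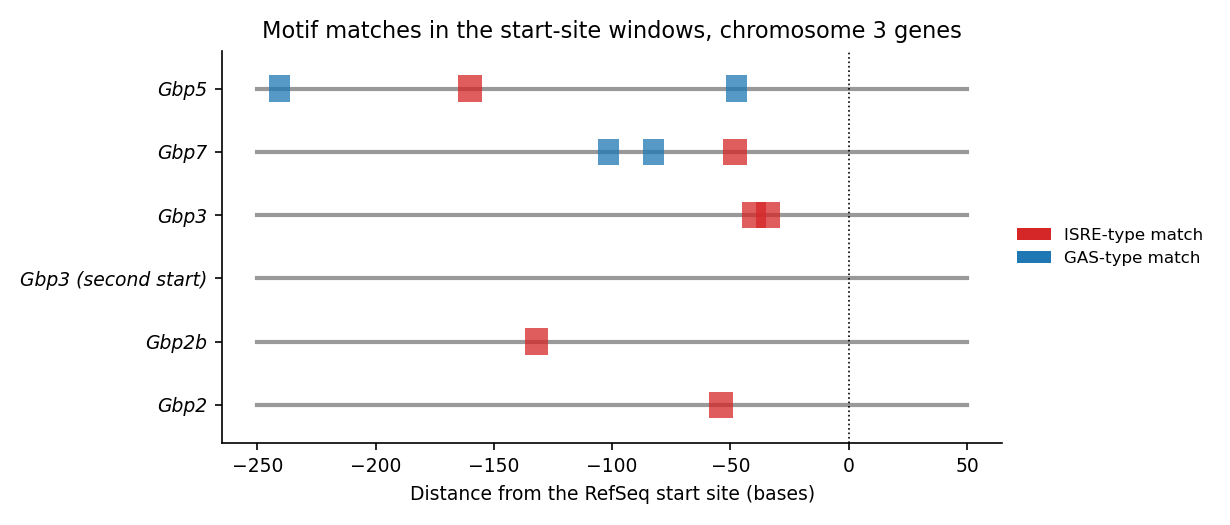
Motif matches in the RefSeq start-site windows of the Gbp genes on chromosome 3. The x axis is the distance from the start site in bases, each grey line is 1 window, red boxes are ISRE-type matches and blue boxes are GAS matches. The ISRE-type matches of *Gbp2*, *Gbp7* and *Gbp3* lie within 59 bases of the start site, and the second window of *Gbp3* holds none.

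*Gbp2* was the member with the widest range. This GTPase, which carries a prenylation signal and is recruited to pathogen vacuoles, had 43.5 and 48.1 CPM in the Naive libraries, 148 and 105 CPM in Th17 and 2423 and 3316 CPM in Th1. The 3 cell types did not overlap, and both Th1 libraries stood far above the other 4. The mean was 2869 CPM ± 631 (SD, n = 2) in Th1, 126 CPM ± 30.5 (SD, n = 2) in Th17 and 45.8 CPM ± 3.27 (SD, n = 2) in Naive. The log2 fold change between Th1 and Naive was 5.97 (SE 0.40), a 62.7-fold difference, with an edgeR adjusted p of 3e-05. In bulk RNA, more expressing cells and more RNA per cell cannot be told apart. Between Th1 and Th17 it was 4.51 (SE 0.37), with an edgeR adjusted p of 0.00015. *Gbp2* alone made up 10.7% and 8.71% of the summed CPM of the 8 members in Naive, 20.0% in each Th17 library, and 59.1% and 76.0% in Th1. The summed level of the 8 members was 405 and 552 CPM in Naive, 740 and 523 CPM in Th17 and 4100 and 4361 CPM in Th1, or between 0.376% and 0.384% of all counts of a Th1 library.

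**Figure D2:**
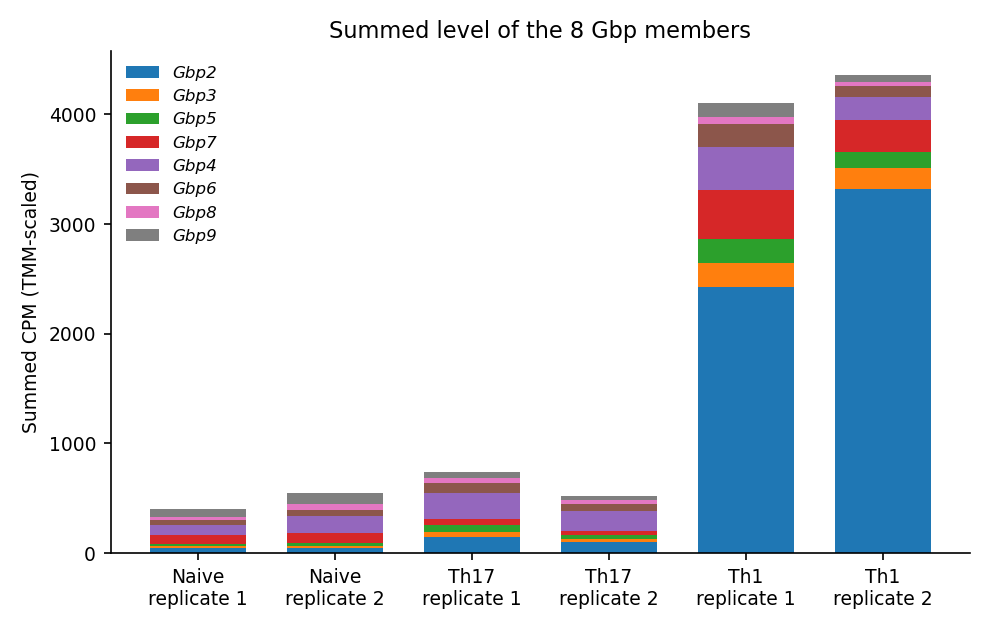
Summed CPM (TMM-scaled) of the 8 Gbp members in each of the 6 libraries, with 1 colour for each gene. *Gbp2*, the lowest segment, accounts for 59.1% and 76.0% of the bars in Th1 and for no more than 20.0% in Naive and Th17.

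The other 3 members of the chromosome 3 cluster were also higher in Th1. *Gbp3* had 20.2 and 19.7 CPM in Naive, 42.2 and 25.7 CPM in Th17 and 219 and 198 CPM in Th1. Its 2 libraries were close in Th1 and in Naive, and the 3 cell types did not overlap. *Gbp5*, a GTPase known to promote assembly of the NLRP3 inflammasome, had 20.9 and 23.7 CPM in Naive, 62.8 and 32.4 CPM in Th17 and 223 and 138 CPM in Th1. Again the cell types did not overlap, but the Th17 and Th1 libraries each spread widely. *Gbp7*, known in macrophages for its part in oxidative killing, had 79.8 and 93.5 CPM in Naive, 60.3 and 36.8 CPM in Th17 and 446 and 292 CPM in Th1. It differed in order from the others, with both Th17 libraries below both Naive libraries.

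Against Naive, Th1 cells had 4 of the 8 members called higher and 0 called lower, where 4.64% of the 13607 tested genes were called higher and 2.81% lower. The 4 were *Gbp2*, *Gbp3*, *Gbp5* and *Gbp7*, that is, the members on chromosome 3. *Gbp3* rose by a log2 fold change of 3.39 (SE 0.31), *Gbp5* by 3.02 (SE 0.38) and *Gbp7* by 2.09 (SE 0.34), with edgeR adjusted p-values of 0.00017, 0.00084 and 0.0030. The median log2 fold change of the 8 members was 1.89, beside -0.017 over all genes tested. The call of *Gbp7* was lost without Naive replicate 1 (log2 fold change 1.98, edgeR adjusted p = 0.022) and without Th1 replicate 1 (1.79, edgeR adjusted p = 0.013). DESeq2 called 6 members, adding *Gbp4* (adjusted p = 0.0096) and *Gbp6* (adjusted p = 0.00089).

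Between Th1 and Th17, the same 4 members were called higher in Th1 and 0 members were called lower, beside 2.7% and 2.83% of all tested genes. *Gbp7* had a log2 fold change of 2.92 (SE 0.35), with an edgeR adjusted p of 0.00082. *Gbp3* had 2.61 (SE 0.30), with an edgeR adjusted p of 0.00070. *Gbp5* had 1.92 (SE 0.37) and an edgeR adjusted p of 0.0082, close to the threshold. Its call was lost without Th17 replicate 1 (edgeR adjusted p = 0.012), without Th17 replicate 2 (0.064) and without Th1 replicate 1 (0.037), with log2 fold changes between 1.53 and 2.47. The median over the 8 members was 1.44, beside -0.027 over all genes tested. This contrast shares its Th1 libraries with the contrast to Naive.

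**Figure D3:**
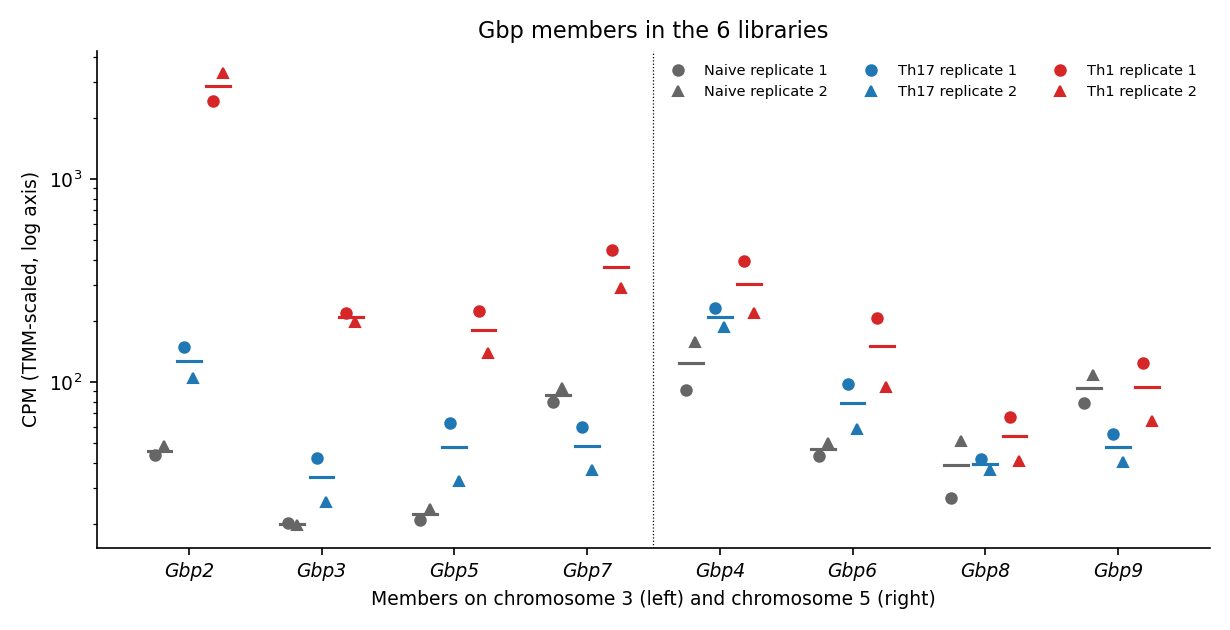
CPM (TMM-scaled, log axis) of the 8 Gbp members in the 6 libraries, with circles for replicate 1, triangles for replicate 2 and a bar for the mean of a cell type. The members on chromosome 3 are on the left, where both Th1 libraries lie above the other 4, and those on chromosome 5 on the right, where the Th1 libraries reach down to 40.9 CPM for *Gbp8*.

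None of the 4 members on chromosome 5 was called by edgeR in any comparison, and DESeq2 called *Gbp4* and *Gbp6* between Th1 and Naive only. *Gbp4*, which has been reported to restrain IRF7 in antiviral signalling, had 91.3 and 158 CPM in Naive, 232 and 188 CPM in Th17 and 393 and 218 CPM in Th1. *Gbp6* had 43.3 and 50.2 CPM in Naive, 97.8 and 58.8 CPM in Th17 and 206 and 94.8 CPM in Th1. For both genes each Th1 library lay above each Naive library but overlapped the Th17 libraries. The log2 fold change between Th1 and Naive was 1.30 (SE 0.37, edgeR adjusted p = 0.040) for *Gbp4* and 1.69 (SE 0.39, edgeR adjusted p = 0.017) for *Gbp6*. *Gbp6* passed the threshold without Th1 replicate 2 (log2 fold change 2.14, edgeR adjusted p = 0.0051) and with the replicate number as a block (1.56, edgeR adjusted p = 0.0060).

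*Gbp8* and *Gbp9* were the members with the smallest differences between Th1 and Naive. *Gbp8* had 26.7 and 51.4 CPM in Naive, 41.6 and 36.7 CPM in Th17 and 67.2 and 40.9 CPM in Th1, with overlap in every comparison. *Gbp9* had 79.1 and 108 CPM in Naive, 55.6 and 40.4 CPM in Th17 and 124 and 64.2 CPM in Th1. Its Th1 libraries lay on either side of the Naive libraries, and its Th17 libraries were the lowest. Between Th1 and Naive the 95% interval of the log2 fold change ran from -0.34 to 1.29 for *Gbp8* and from -0.77 to 0.79 for *Gbp9*. Between Th1 and Th17 it ran from 0.19 to 1.75 for *Gbp9*, with an edgeR adjusted p of 0.085. The intervals do not show that the levels were equal, and whether the 2 clusters differ as groups was not tested.

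The 2 Th1 libraries differed from each other in most members. The ratio of replicate 1 to replicate 2 in Th1 was 1.81 for *Gbp4*, 2.17 for *Gbp6*, 1.64 for *Gbp8* and 1.93 for *Gbp9*. On chromosome 3 it was 0.731 for *Gbp2*, 1.10 for *Gbp3*, 1.61 for *Gbp5* and 1.53 for *Gbp7*. *Gbp2* was thus the only member that was lower in Th1 replicate 1. The median of this ratio was 1.63 over the 8 members and 1.02 over all genes tested. The middle 90% of all genes tested ran from 0.511 to 3.12, so that each member taken singly lay within that range. In Th17 all 8 members were higher in replicate 1, by ratios from 1.13 to 1.94. The median in Th17 was 1.52 over the members and 1.03 over all genes tested, whose middle 90% ran from 0.597 to 2.04. Each member taken singly again lay within that range. Whether the members shifted together more than other genes do was not tested.

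Th17 cells had 0 members called against Naive in either direction by edgeR, where 4.01% of all tested genes were called higher and 1.43% lower. At an unadjusted p under 0.05 there were 5, of which *Gbp2*, *Gbp3* and *Gbp5* were higher in Th17 and *Gbp7* and *Gbp9* were lower. DESeq2 called 1, *Gbp2*. The log2 fold change of *Gbp2* was 1.47 (SE 0.33, edgeR adjusted p = 0.017), and those of *Gbp5* and *Gbp3* were 1.10 (SE 0.36) and 0.77 (SE 0.29). *Gbp7* and *Gbp9* had log2 fold changes of -0.83 (SE 0.33, edgeR adjusted p = 0.11) and -0.96 (SE 0.35, edgeR adjusted p = 0.088). The median of the 8 members was 0.75, beside -0.019 over all genes tested. The part of the neutrophil transcripts of the Th17 libraries in these values was not tested.

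**Figure D4:**
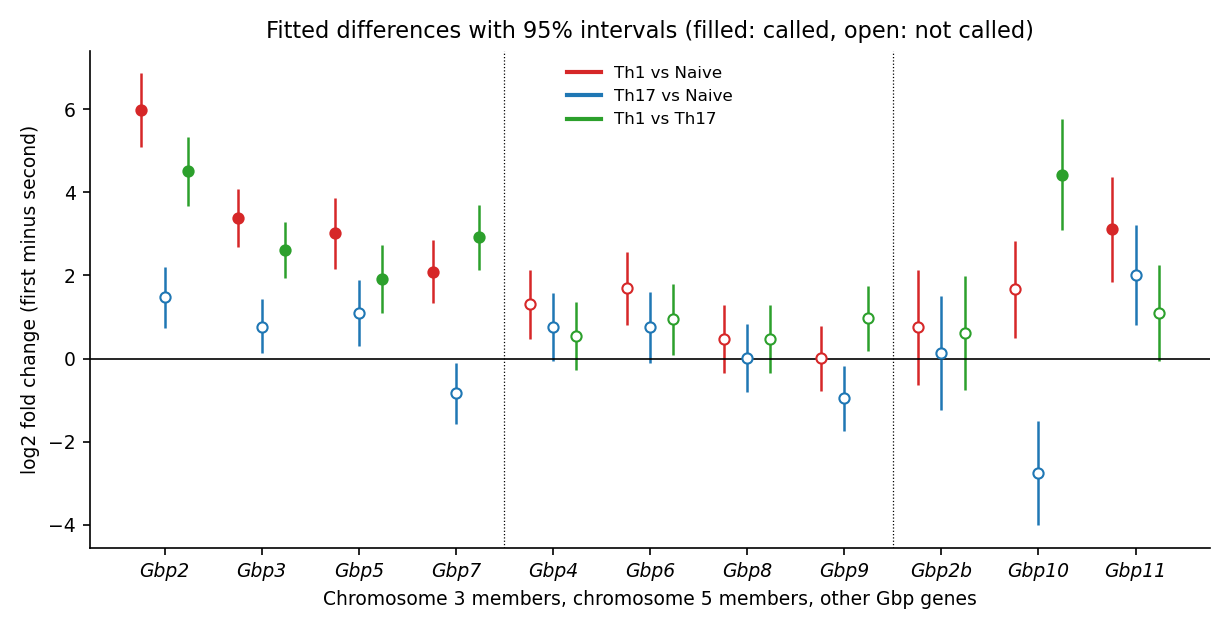
Log2 fold changes (first minus second cell type) of the 8 members and of 3 other Gbp genes, with 95% intervals from edgeR, in red for Th1 vs Naive, blue for Th17 vs Naive and green for Th1 vs Th17. Filled points were called and open points were not. The 4 members on the left, from chromosome 3, were called in both Th1 comparisons, and no gene was called between Th17 and Naive.

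Compared per length, with CPM divided by the kilobases of merged exons, *Gbp2* was the highest member in Th1 and *Gbp8* the lowest. In Th1 the level of *Gbp2* was 1140 CPM per kb ± 251 (SD, n = 2). *Gbp7* followed with 65.7 ± 19.5 and *Gbp3* with 63.9 ± 4.44 CPM per kb, and their libraries overlapped. *Gbp4* (40.7), *Gbp5* (27.2), *Gbp6* (25.2), *Gbp9* (18.2) and *Gbp8* (15.7 CPM per kb) came next, each overlapping its neighbour in this order. In Naive cells the levels ran from 18.2 CPM per kb for *Gbp2* to 3.36 CPM per kb for *Gbp5*, and the first 6 genes in order overlapped one with the next. In Th17 *Gbp2* (50.2 CPM per kb) and *Gbp4* (28.0 CPM per kb) stood above the other 6, which ran from 13.1 CPM per kb for *Gbp6* to 7.18 CPM per kb for *Gbp5*, each overlapping the next. Divided by the longest transcript instead of the merged exons, *Gbp2* remained the highest and *Gbp8* the lowest member in Th1, while *Gbp4* reached 27.4 CPM per kb in Naive, above *Gbp2*, and *Gbp7* with 8.65 CPM per kb was the lowest in Th17.

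The 3 other Gbp genes of the table were much lower. *Gbp2b* had between 0.998 and 3.60 CPM in the 6 libraries and was not called, with a log2 fold change of 0.75 (SE 0.62) between Th1 and Naive. The ISRE-type match of its window had the same letters as that of *Gbp2* and lay at -137 to -128. That of *Gbp5*, which was called, lay farther away, at -165 to -156. A link between motif position and level was not tested. *Gbp11*, annotated as a polymorphic pseudogene on chromosome 5, had 1.85 and 2.58 CPM in Naive, 11.5 and 5.995 CPM in Th17 and 27.6 and 9.99 CPM in Th1. It was called between Th1 and Naive with a log2 fold change of 3.11 (SE 0.56, edgeR adjusted p = 0.0051). *Gbp10*, also on chromosome 5, had 6.57 and 6.09 CPM in Naive, 1.38 and 0.339 CPM in Th17 and 25.1 and 15.0 CPM in Th1. It was called between Th1 and Th17 with a log2 fold change of 4.42 (SE 0.60, edgeR adjusted p = 0.0015). Called Gbp genes were therefore not confined to chromosome 3.

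Some of these genes share transcript sequence with other annotated genes, in part because their exons overlap in place, and both bear on how reads are counted. Of the 150-base stretches of the *Gbp6* transcripts, 59.1% also occurred in *Gbp10* or in the annotated gene *Gm43302*, and for *Gbp10* the share was 66.6%. The levels of *Gbp6* and *Gbp10* are therefore uncertain. The share was 8.77% for *Gbp7*, all with the annotated gene *Gm43802*, and at most 0.0786% for the other Gbp genes. Exons of *Gm43802* overlap 637 of 5614 exon bases of *Gbp7* on the same strand. Neither *Gm43302* nor *Gm43802* was in the count tables, and whether these overlaps changed the counts was not tested. The exons of *Gbp4*, *Gbp8* and *Gbp9* overlapped by at most 61 bases.

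The genes around the clusters were compared next. Within 250 kb of a Gbp gene, 3 tested neighbours lay by the chromosome 3 cluster and 4 by the chromosome 5 cluster. *Pdlim5*, *Gtf2b* and *Pkn2* on chromosome 3 were not called in any comparison, with log2 fold changes between Th1 and Naive of -0.63, 0.36 and -0.05. On chromosome 5 *Lrrc8c*, a subunit of volume-regulated anion channels, had 67.2 and 93.1 CPM in Naive, 66.1 and 48.9 CPM in Th17 and 285 and 283 CPM in Th1. It was called between Th1 and Naive (log2 fold change 1.83, SE 0.29, edgeR adjusted p = 0.0027) and between Th1 and Th17 (2.30, SE 0.29, edgeR adjusted p = 0.0011). *Zfp951*, *Abcg3* and *Lrrc8b* were not called.

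**Figure D5:**
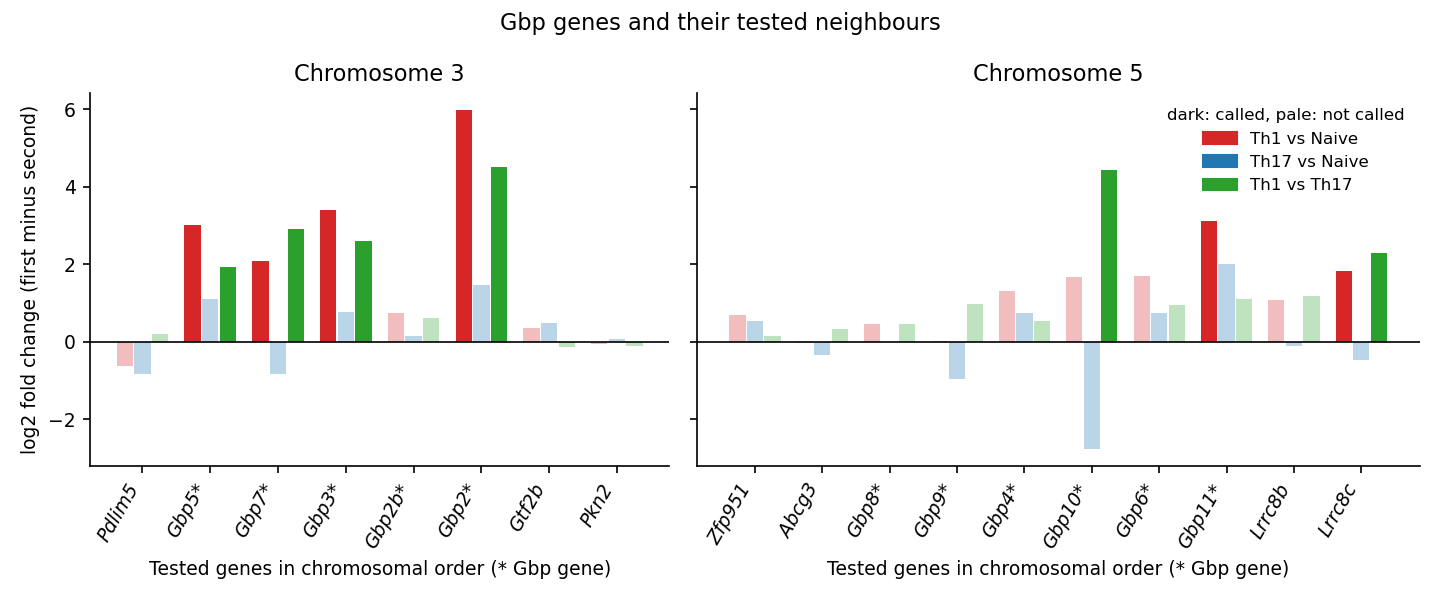
Log2 fold changes (first minus second cell type) of the Gbp genes, marked by an asterisk, and of their tested neighbours in chromosomal order, for Th1 vs Naive (red), Th17 vs Naive (blue) and Th1 vs Th17 (green). Dark bars were called and pale bars were not. The called bars on chromosome 3 belong to *Gbp5*, *Gbp7*, *Gbp3* and *Gbp2*, and those on chromosome 5 to *Gbp10*, *Gbp11* and *Lrrc8c*.

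The ligand of the pathway was called in all 3 comparisons. *Ifng* had 4.55 CPM in each Naive library, 64.6 and 48.7 CPM in Th17 and 177 and 157 CPM in Th1, so that it was 36.6-fold higher in Th1 and 12.5-fold higher in Th17 than in Naive (edgeR adjusted p = 1.6e-05 and 7.7e-05). The exons of *Ifng* share 336 of 1295 bases with *Gm49751*, an annotated gene of the same strand that was not in the count tables. Whether this changed the counts of *Ifng* was not tested. The receptor chains moved in opposite directions in Th1. *Ifngr1* rose from a mean of 124 CPM in Naive to 762 CPM in Th1 (log2 fold change 2.62, SE 0.34, edgeR adjusted p = 0.00093). *Ifngr2* fell from 42.5 to 4.90 CPM (log2 fold change -3.16, SE 0.47, edgeR adjusted p = 0.0020) and stayed at 39.4 CPM in Th17. *Irf1* had means of 190, 160 and 323 CPM in Naive, Th17 and Th1 and was not called (Th1 vs Th17 log2 fold change 1.02, SE 0.27, edgeR adjusted p = 0.031). *Jak1* and *Jak2* were not called in any comparison.

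Of 12 IFN-γ signalling genes tested, 3 were called higher and 1 lower in Th1 than in Naive, and 2 were called higher in Th17 than in Naive. Between Th1 and Th17, 3 were called higher and 1 lower. The transcription factor *Irf8* had a log2 fold change of 2.36 (SE 0.31), and *Nlrc5*, an activator of MHC class I genes, one of 2.01 (SE 0.39), both higher in Th1 than in Th17. *Ciita*, the activator of MHC class II genes, rose between Naive and Th17 from a mean of 0.631 to 5.71 CPM. Of 8 type I interferon signalling genes 0 were called against Naive in either helper cell by edgeR, with 2 in Th1 and 4 in Th17 at an unadjusted p under 0.05, and 1 and 3 called by DESeq2. *Irf7* was called between Th1 and Th17 (log2 fold change 2.38, SE 0.46), with 155 and 50.2 CPM in the Th1 libraries and 21.8 and 17.6 CPM in Th17.

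Inhibitors of cytokine signalling were among the called genes. Of 10 tested, 3 rose in Th1 against Naive, namely *Socs2*, *Socs1* and *Socs3*, of which *Socs1* blocks JAK kinases and rose from a mean of 38.6 to 260 CPM (log2 fold change 2.75, SE 0.32). In Th17 *Socs3* and *Socs2* rose and *Usp18*, an interferon-induced brake on type I receptors, fell from 15.9 to 2.15 CPM. Between Th1 and Th17, *Usp18* and *Socs1* were called higher in Th1, *Usp18* by a log2 fold change of 3.78 (SE 0.57).

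The immunity-related GTPases, another interferon-induced GTPase family that acts on the same vacuoles, were compared as a second list. Of 10 tested, 5 were called higher in Th1 than in Naive (*Gm4951*, *Iigp1*, *Igtp*, *Gm12250* and *Tgtp1*) and 0 lower, with a median log2 fold change of 1.61. *Iigp1* had 27.7 and 23.8 CPM in Naive, 14.8 and 10.8 CPM in Th17 and 273 and 213 CPM in Th1. *Igtp*, named after its values were seen, averaged 110 CPM in Naive and 149 CPM in Th17 but 933 CPM in Th1. Between Th1 and Th17, 5 were called higher (*Gm4951*, *Iigp1*, *Igtp*, *Gm12250* and *Irgm1*). Between Th17 and Naive 0 of 10 were called by edgeR or by DESeq2, with 4 at an unadjusted p under 0.05.

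Genes that act downstream of or with the proteins were compared last. Of 11 inflammasome genes tested, edgeR called 1 higher in Th1 than in Naive, 3 higher in Th17 than in Naive and 1 lower in Th1 than in Th17, and DESeq2 called 3, 3 and 5. *Casp4*, the mouse sensor of cytosolic lipopolysaccharide, rose in Th1 (log2 fold change 2.74, SE 0.32) and in Th17 (2.12, SE 0.32) against Naive. *Nlrp3* and *Il1b* were called higher in Th17 than in Naive, with means of 6.16 and 6.14 CPM in Th17, and *Nlrp3* was lower in Th1 than in Th17. The 7 macrophage markers in the table summed to 294 and 863 CPM in Th17, led by *Lyz2*, and to between 21.4 and 40.9 CPM in Naive and Th1, and their part in the calls of *Nlrp3* and *Il1b* was not tested. In Th1, where the Gbp members were highest, the summed macrophage markers were 21.4 and 24.4 CPM and the summed dendritic cell markers 6.39 and 6.70 CPM, no higher than in Naive replicate 1, with *Csf1r* at 0.418 and 0.443 CPM. Of 14 genes of the autophagy conjugation machinery and its ubiquitin adaptors, which place Gbp proteins on vacuoles, 0 were called in any comparison by edgeR or DESeq2, with 2, 4 and 2 at an unadjusted p under 0.05 in Th1 vs Naive, Th17 vs Naive and Th1 vs Th17. Of 6 genes of protein prenylation, which anchors *Gbp2* and *Gbp5* in membranes, 0 were called by edgeR in any comparison, with 0, 1 and 1 at an unadjusted p under 0.05, and DESeq2 called 1 between Th1 and Th17. Over these 7 lists, 13 of 71 genes tested were called between Th1 and Naive, 8 between Th17 and Naive and 13 between Th1 and Th17, where 7.45%, 5.43% and 5.53% of all tested genes were called in either direction.

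The 5 genes whose centred log2 CPM lay nearest to the median profile of the members, over 6 libraries, were *Olfr56*, *Msh5*, *Syne3*, *Icosl* and *Tnfrsf1b*, with root mean square differences between 0.229 and 0.249. *Tnfrsf1b*, a receptor for tumour necrosis factor, averaged 69.9 CPM in Naive and 81.7 CPM in Th17 but 272 CPM in Th1. These genes were chosen for this profile, so that their differences between cell types restate the choice and were not read as tests. The exons of *Olfr56* share 111 bases with those of *Ifi47*, an immunity-related GTPase gene of the same strand, so that its counts are uncertain.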

How the data were processed

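Poly(A) RNA-Seq was analysed for Naive, Th17 and Th1 cells, with 2 libraries per cell type. Per the labels and methods, the authors mapped reads to mm10 with HISAT2 (2.2.1) and counted them per gene with HTSeq (0.13.5), and the deposited values are raw counts per gene, not normalized. Per the methods, duplicate reads were discarded and HTSeq ran by default, while the supplementary code shows no such step and a reverse-stranded setting. Default counting leaves out reads that map more than once.

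Genes were filtered with filterByExpr, scaled by TMM and tested with edgeR 4.0.16 (R 4.3.3) with cell type as the only term. Reported p-values rest on an estimate of the spread of each gene that is shared by the cell types, with 2 libraries each. This estimate borrows from the other tested genes, and depth covers counting error only. Level alternatives were tried for length and scaling, and test alternatives for tool (DESeq2 1.42.0), scaling, filter, block, libraries and threshold. Samples sharing a replicate number did not deviate together throughout (r between -0.231 and 0.168).

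The members and gene lists were chosen with earlier results of these data known. Genes named are the members, other Gbp genes, fixed pathway genes, up to 4 called genes of each list and comparison, called neighbours, and the 5 genes of nearest profile. A few genes that fit this rule, and some markers, are not reported here. Proteins and, beyond 4 members, promoters were not analysed here.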

Additional observations from a re-analysis of the deposited data

Results flagged for a closer look

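The Th1 minus Th17 term of the edgeR model also tests whether the change from Naive differed between the helper cells. Among the Gbp genes it was called for *Gbp2* (4.51 on the log2 scale), *Gbp3* (2.61), *Gbp5* (1.92), *Gbp7* (2.92) and *Gbp10* (4.42). *Gbp7* and *Gbp10* were above both Naive libraries in both Th1 libraries and below them in both Th17 libraries. Among the signalling genes and inhibitors the difference was called for *Ifng* (1.56), *Ifngr2* (-3.05), *Irf8* (2.36), *Nlrc5* (2.01), *Irf7* (2.38), *Socs1* (1.84) and *Usp18* (3.78). Among the other named genes it was called for *Gm12250* (2.17), *Iigp1* (4.24), *Gm4951* (4.29), *Irgm1* (1.84), *Nlrp3* (-3.34), *Lrrc8c* (2.30) and *Igtp* (2.65), the last named after its values were seen. With 2 libraries per cell type no library could be examined as an outlier within its group.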

How the results depend on the processing

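The calls of *Gbp2* and *Gbp3* in both Th1 comparisons held under all 15 alternatives, as did those of *Gbp5* between Th1 and Naive and of *Gbp7* between Th1 and Th17. With library size alone, which shifts the median log2 fold change of all genes to -0.263 (Th1 vs Naive) and -0.242 (Th1 vs Th17), *Gbp7* lost its call against Naive (1.85, edgeR adjusted p = 0.012) and *Gbp5* against Th17 (1.70, edgeR adjusted p = 0.028). *Gbp5* also lost it with at least 10 counts in every library (edgeR adjusted p = 0.011). Among the alternatives, an adjusted p under 0.05 is a looser threshold on the same fit, so that it could not remove a call.

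Over the alternatives the number of members called was between 3 and 6 for Th1 vs Naive and between 3 and 4 for Th1 vs Th17. For Th17 vs Naive it was 1 with DESeq2, with only the 4 libraries compared and at an adjusted p under 0.05, and 2 without a filter (*Gbp2* and *Gbp5*). All genes called changed as well. In Th1 vs Naive, Th17 vs Naive and Th1 vs Th17 they were 1014, 739 and 752 in the main fit. DESeq2 gave 1935, 1741 and 1829, no filter 2259, 2154 and 2232, and an adjusted p under 0.05 gave 2164, 2063 and 2112. Library size alone gave 762, 557 and 554, and at least 10 counts in every library 674, 343 and 411. List genes called in Th1 vs Naive, Th17 vs Naive and Th1 vs Th17 were 22, 13 and 27 with DESeq2, 21, 16 and 27 without a filter, and 24, 14 and 27 at an adjusted p under 0.05. Library size alone gave 5 in Th17 vs Naive and 7 in Th1 vs Th17, and at least 10 counts gave 4 in Th17 vs Naive. Leaving out 1 library gave between 12 and 14, between 3 and 9, and between 2 and 18, with 2 in the last comparison without Th17 replicate 2 and 4 without Th17 replicate 1, and between 3 and 5, 0, and between 3 and 4 members.

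The small differences changed sign. *Gbp9* in Th1 vs Naive became -0.22 with library size alone, -0.023 with at least 10 counts, -0.065 with the replicate block, -0.028 with counts thinned to the smallest library, and -0.50 to 0.41 on leaving out 1 library. *Gbp8* in Th17 vs Naive became -0.029 with library size alone and -0.0047 with thinned counts, and -0.39 to 0.54 on leaving out 1 library. Samples share only a replicate number. With that number as a block, 5 members instead of 4 were called in Th1 vs Naive, 0 in Th17 vs Naive and 4 in Th1 vs Th17. Levels per kb moved by more than 1 SD mainly where the longest transcript is much shorter than the merged exons (*Gbp4* in Th1 67.3 instead of 40.7, *Gbp5* 48.0 instead of 27.2). The cause of these shifts in calls was not tested, and 2 libraries per cell type limit every call.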

Other observations

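The 2 Th1 libraries also differed in some other interferon-induced genes. *Irf7* had 155 and 50.2 CPM, *Usp18* 44.6 and 13.4 CPM and *Gm12250* 165 and 89.5 CPM in Th1 replicates 1 and 2, in the same direction as *Gbp4* (393 and 218 CPM), *Gbp6* (206 and 94.8 CPM) and *Gbp11* (27.6 and 9.99 CPM). *Igtp*, with 925 and 940 CPM, *Tgtp1*, with 171 and 167 CPM, and *Gbp3*, with 219 and 198 CPM, were close in both. *Gbp2b* (a ratio of replicate 1 to replicate 2 of 0.416) and *Ifngr2* differed in the opposite direction. These genes were picked after their values were seen, and the difference between 2 single libraries was not tested.

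*Ifngr2*, the signalling chain of the IFN-γ receptor, had 2.60 and 7.21 CPM in the Th1 libraries and between 35.3 and 49.7 CPM in the other 4. It was thus lowest in the cell type where the Gbp members of chromosome 3 were highest. Within Th1, *Gbp2* was higher in replicate 2 (2423 and 3316 CPM), as was *Ifngr2*, while *Gbp3*, *Gbp5* and *Gbp7* were higher in replicate 1. A link between these levels was not tested.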
